A study of Mus musculus with 4 samples.

Results

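The genes of transforming growth factor beta (TGF-beta), bone morphogenetic protein (BMP) and activin signaling were followed in mesothelium of 2 sites, the epithelium that covers the organs and lines the wall of the body cavity. The set held 48 genes, of 19938 measured, fixed by name as ligands, receptors, antagonists, Smads and Id genes, together with the protease gene Bmp1 and the pseudoreceptor gene Bambi. Each was taken as the row of the array table that carries its symbol alone. All 48 were found, and none had more than 1 such row, so that no choice between rows was needed. No member was lost to a filter on dim signals, because none was applied.

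RNA came from visceral mesothelium of the omentum and from parietal mesothelium teased off the muscle of the body wall, both from untreated adult mice of the genotype Wt1-cre;Rosa26ReYFP on a c57bl/6 background. In these animals the Cre recombinase is driven by Wt1, a gene of mesothelial cells, and switches on a yellow fluorescent reporter. Each tissue had 2 arrays of the type Mouse Gene 1.0 ST (Affymetrix), called by the labels biological replicates without naming the animals, so that a p-value reflects only how far these arrays spread. The arrays were hybridized with RNA of the native tissue, and sorting of cells by the reporter is not described. The study judged nearly all of the input to be mesothelial from the reporter. Values are log2 signals after robust multi-chip average (RMA) normalization, and differences are visceral minus parietal. A difference was called where limma, which pools the spread over all genes, gave a Benjamini-Hochberg adjusted p under 0.05 and the fold was at least 1.5 (0.585 on the log2 scale). By this rule 1915 genes, or 9.60% of all genes, differed, 5.22% on the visceral and 4.39% on the parietal side. The number of arrays limits the precision.

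Ligands of this family are secreted as dimers and bring together type I and type II receptor kinases on the cell surface. The receptors phosphorylate Smad proteins, Smad2 and Smad3 for TGF-beta and activin, and Smad1, Smad5 and Smad9 for BMPs, which enter the nucleus with Smad4. Secreted antagonists bind the ligands before they reach a receptor, and Smad6 and Smad7 inhibit the pathway within the cell. TGF-beta is known in mesothelium for driving the transition to mesenchymal cells and for peritoneal fibrosis.

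Promoter stretches are shown for Id2 and Id3, of the Id genes that are textbook targets of BMP signaling, and for Bmp4 and Bmp6, ligand genes that were both higher in parietal mesothelium. RefSeq windows for the build GRCm38.p6, from 250 bases before to 50 bases after the gene start, were held for 31 of the 48 genes. The part upstream of the start is printed 5′ to 3′ for Id2, Id3, Bmp4 and Bmp6, while Id1 had no window and is named only. Capitals mark the letters CAGAC or its reverse complement GTCTG, the core of the element that Smad3 and Smad4 bind, and GGCGCC, a GC-rich element described for BMP Smads. The Id2 stretch lies on chromosome 12 from 25096093 to 25096342 on the minus strand, and the Id3 stretch on chromosome 4 from 136143572 to 136143821 on the plus strand. The Bmp4 stretch lies on chromosome 14 from 46390670 to 46390919 on the minus strand, and the Bmp6 stretch on chromosome 13 from 38345466 to 38345715 on the plus strand.
Id2: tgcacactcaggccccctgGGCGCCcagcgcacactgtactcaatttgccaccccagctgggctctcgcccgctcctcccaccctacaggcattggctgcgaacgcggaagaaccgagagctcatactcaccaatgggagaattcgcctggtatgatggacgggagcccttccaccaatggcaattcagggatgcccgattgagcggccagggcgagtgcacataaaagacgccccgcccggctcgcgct
Id3: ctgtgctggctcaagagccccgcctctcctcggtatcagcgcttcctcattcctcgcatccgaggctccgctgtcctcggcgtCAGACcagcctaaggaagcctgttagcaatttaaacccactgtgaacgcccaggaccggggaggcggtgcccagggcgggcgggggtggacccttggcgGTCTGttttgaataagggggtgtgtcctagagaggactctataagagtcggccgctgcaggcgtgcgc
Bmp4: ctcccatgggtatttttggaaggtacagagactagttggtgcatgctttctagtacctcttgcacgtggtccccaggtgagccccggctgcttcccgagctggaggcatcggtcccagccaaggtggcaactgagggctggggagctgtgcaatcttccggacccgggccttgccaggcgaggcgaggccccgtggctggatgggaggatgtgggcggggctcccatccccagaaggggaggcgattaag
Bmp6: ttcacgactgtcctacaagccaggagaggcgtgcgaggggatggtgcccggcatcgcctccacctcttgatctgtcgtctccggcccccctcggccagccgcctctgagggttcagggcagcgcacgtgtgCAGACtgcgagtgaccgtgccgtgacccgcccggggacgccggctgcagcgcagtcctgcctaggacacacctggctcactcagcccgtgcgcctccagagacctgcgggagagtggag

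The Id2 stretch held GGCGCC once, 231 bases before the start, and no CAGAC, while the Id3 stretch held CAGAC at 167 bases and, as GTCTG, at 68 bases before the start. The Bmp6 stretch held CAGAC at 119 bases before the start, and the Bmp4 stretch held none of these letters. Both motifs were searched on both strands, and GGCGCC is its own reverse complement. Over all 32851 windows of the table, 49.6% held CAGAC and 11.9% held GGCGCC. Among the 36 windows of the set, some genes having several, 17 (47.2%) held CAGAC and 12 (33.3%) held GGCGCC. Overlapping windows of Smad5 hold the same GGCGCC site, which counts in each of them, here and among genes not called. Windows were held for only 6 of the 13 called genes, and the shares below cover those alone. Of windows of called genes, 3 of 7 (42.9%) held GGCGCC, those of Id2, Bmpr1a and 1 of the pair listed for Tgfbr1. The same letters were in 9 of 29 windows (31.0%) of genes that were not called. CAGAC was in 2 of 7 (28.6%) and 15 of 29 (51.7%). The palindrome GTCTAGAC, a Smad element that holds neither CAGAC nor GTCTG, was in 0.213% of all windows and in 1 window of the set, that of Smad6, where it begins 4 bases before the start. These matches describe the letters and not the binding of a factor.

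Of the 48 genes, 13 (27.1%) were called, 6 on the visceral and 7 on the parietal side, against 9.60% of all genes. Of the set, 36 genes were brighter than the median gene in either tissue, against 10545 of all 19938 genes. The shares were not matched for brightness. Ligand genes moved in both directions, with Inhba, Bmp7 and Tgfb3 higher in visceral and Bmp6, Bmp4 and Bmp3 higher in parietal mesothelium. Among receptor genes, Tgfbr1 and Acvrl1 were higher in visceral mesothelium, and Bmpr1a was higher in parietal mesothelium. Both called antagonist genes, Chrdl1 and Fst, were higher in parietal mesothelium, the former by 6.56-fold. Of the Id genes, Id2 was higher in visceral and Id1 in parietal mesothelium, while 0 of 8 Smad genes were called. The median difference of the set was 0.00 and the median size of a difference, regardless of sign, 0.32, against 0.00 and 0.14 over all genes. Arrays of the tissues did not overlap for 34 of the 48 genes (70.8%), against 56.3% of all genes. These genes were chosen with results of the same arrays known, and the counts are a description.

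**Figure D1:**
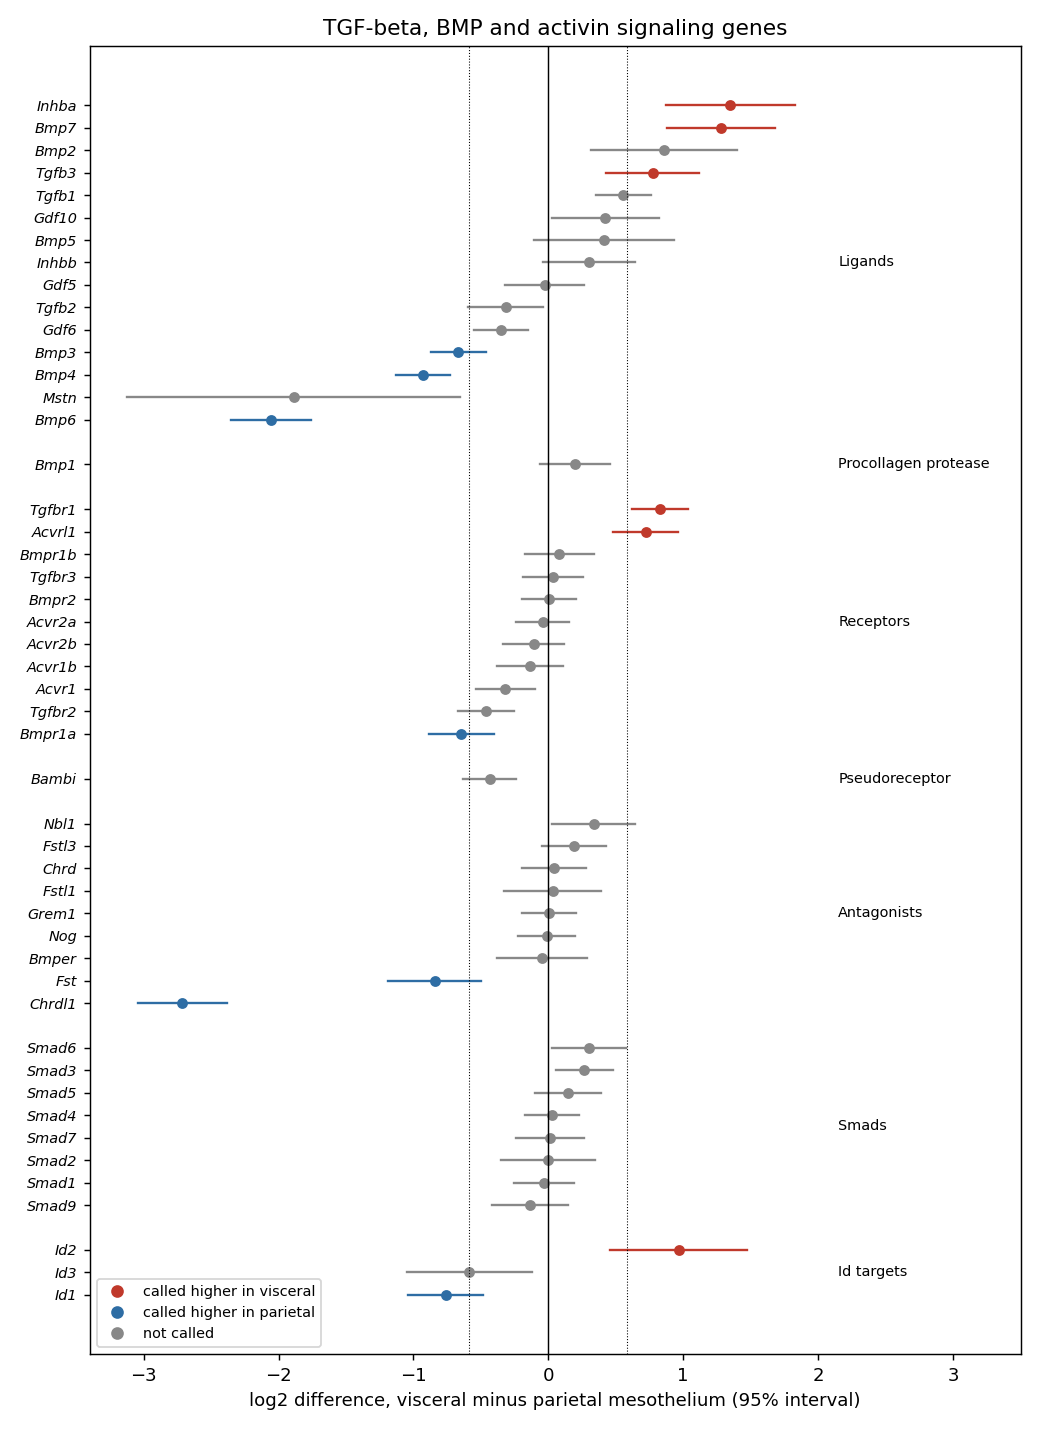
Visceral signal minus parietal signal on the log2 scale (x axis) for the 48 genes by class (y axis), with bars for the 95% confidence interval from limma and dotted lines at a fold of 1.5. Red points were called on the visceral side and blue points on the parietal side; Chrdl1 at -2.71 and Bmp6 at -2.06 lie farthest to the left, and the intervals of all 8 Smad genes lie between the dotted lines.

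Among the 15 ligand genes, 6 were called (40.0%, against 9.60% of all genes), 3 in each direction. The arrays of the tissues overlapped only for Gdf5, so that 93.3% did not overlap, against 56.3% of all genes. Bmp6, a BMP known for its part in iron balance, had log2 signals of 9.01 and 8.71 in visceral and 10.94 and 10.89 in parietal mesothelium. Both parietal arrays lay well above both visceral ones, and Bmp6 was 4.16-fold higher in parietal mesothelium (-2.06 on the log2 scale, SE 0.12, limma adjusted p = 0.000378). Bmp7, which belongs with Bmp5 and Bmp6 to one branch of the family by sequence, went the other way. Its signals were 9.64 and 9.69 in visceral and 8.62 and 8.15 in parietal mesothelium, without overlap, a difference of 1.28 (SE 0.16, limma adjusted p = 0.00541). Bmp5, the remaining gene of that branch, had signals of 8.74 and 8.11 in visceral and 8.09 and 7.94 in parietal mesothelium. The lower visceral array of Bmp5 was nearly level with the higher parietal one, and the difference of 0.41 did not pass (95% interval -0.10 to 0.93, adjusted p = 0.277). Without visceral replicate 2 it was 0.73 and passed (adjusted p = 0.0290). In a bulk sample such as these, fewer cells of a type and less RNA per cell cannot be told apart.

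Bmp4, which with Bmp2 forms a second branch, had signals of 11.39 and 11.34 in visceral and 12.30 and 12.28 in parietal mesothelium. The arrays of each tissue lay close together, and Bmp4 was 1.90-fold higher in parietal mesothelium (-0.93 on the log2 scale, SE 0.08, limma adjusted p = 0.00142). Bmp2 had signals of 7.50 and 7.33 in visceral and 6.89 and 6.23 in parietal mesothelium, all below the median signal of all genes, 7.71. The visceral arrays were the higher ones, but the difference of 0.86 did not pass (95% interval 0.32 to 1.40, adjusted p = 0.0557), and without parietal replicate 1 it was 1.19 (adjusted p = 0.00128). Bmp3, which opposes other BMPs, was also dim, with 6.83 and 6.77 in visceral and 7.50 and 7.44 in parietal mesothelium. It was higher in parietal mesothelium by 1.59-fold (-0.67 on the log2 scale, SE 0.08, limma adjusted p = 0.00504). Gdf10, the closest relative of Bmp3, leaned to the visceral side at 9.01 and 9.41 against 8.68 and 8.90, and its difference of 0.42 did not pass (adjusted p = 0.162).

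Inhba encodes the beta A subunit, which makes up activin A. Its signals were 9.14 and 8.56 in visceral and 7.50 and 7.51 in parietal mesothelium. Both visceral arrays were higher, although they lay 0.59 apart, and Inhba was 2.55-fold higher in visceral mesothelium (1.35 on the log2 scale, SE 0.19, limma adjusted p = 0.00816). On leaving out each array in turn the difference was 1.06 to 1.64 and was called each time. Macrophages can also express Inhba and Tgfb1, and all 13 measured macrophage markers were called higher in visceral mesothelium. The log2 of the summed signal of these markers was 14.76 and 14.80 against 12.59 and 12.79. The part of macrophages in the Inhba and Tgfb1 signals was not tested. Inhbb, which encodes the beta B subunit, had a difference of 0.30 that did not pass (95% interval -0.04 to 0.64, adjusted p = 0.232).

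Of the 3 TGF-beta isoforms, only Tgfb3 was called. Tgfb3 had signals of 11.89 and 12.19 in visceral and 11.14 and 11.39 in parietal mesothelium, and was 1.71-fold higher in visceral mesothelium (0.77 on the log2 scale, SE 0.14, limma adjusted p = 0.0185). The pairs did not overlap, but without visceral replicate 2 the difference was 0.63 and did not pass (adjusted p = 0.0700). Tgfb1, the isoform most studied in fibrosis, had signals of 9.10 and 9.04 against 8.54 and 8.50. All visceral values were higher and the adjusted p was 0.00943, but the fold of 1.47 was short of 1.5, so that Tgfb1 was not called. Without visceral replicate 2 its difference was 0.59 (adjusted p = 0.0364) and was called. Tgfb2 leaned to the parietal side, with 9.42 and 9.21 against 9.71 and 9.55, a difference of -0.32 that did not pass (95% interval -0.60 to -0.04, adjusted p = 0.140).

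Mstn encodes myostatin, a ligand that restrains the growth of skeletal muscle. Its signals were 5.88 and 5.63 in visceral and 6.83 and 8.46 in parietal mesothelium. The parietal arrays were both higher but lay 1.63 apart, the widest gap between arrays of a tissue among the 48 genes, and the difference of -1.89 did not pass (95% interval -3.12 to -0.65, adjusted p = 0.0631 from limma). It passed when either parietal array was left out, at -2.71 without parietal replicate 1 (adjusted p = 2.7e-05) and -1.07 without parietal replicate 2 (adjusted p = 0.00331). In those fits the lone parietal array was taken to vary like the visceral arrays. The same tissue carried genes of skeletal muscle. All 17 genes of a list of muscle markers were called higher in parietal mesothelium. The log2 of their summed signal was 16.22 and 16.59 there against 11.28 and 11.33. Parietal replicate 2 was the higher array for this list as for Mstn. The part of muscle RNA in the Mstn signal was not tested. The remaining ligand genes, Gdf5 and Gdf6, which act in joint formation, were dim in all arrays, and Gdf6 passed the adjusted p (0.0422) with a fold of only 1.27, higher in parietal mesothelium. Bmp1, which despite its name is a protease that trims procollagens and cleaves chordin, had a difference of 0.20 and did not pass (95% interval -0.06 to 0.45, adjusted p = 0.292).

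**Figure D2:**
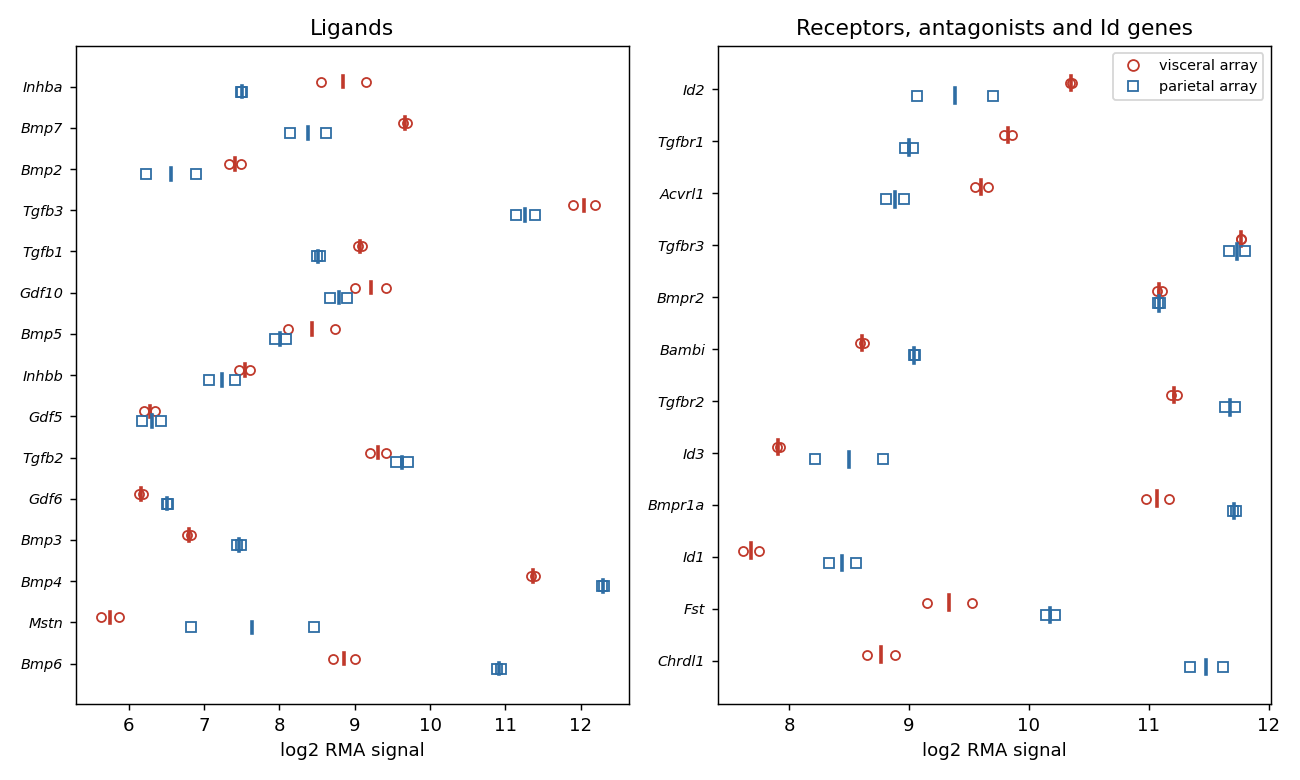
Log2 RMA signal (x axis) of each array for the 15 ligand genes (left) and for the called and selected further genes (right), ordered by difference (y axis). Circles are visceral and squares parietal arrays, with a vertical bar at the mean of each pair; the parietal squares of Mstn lie at 6.83 and 8.46, and those of Bmp4 nearly coincide.

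Of the 11 receptor genes, 3 were called (27.3%, against 9.60% of all genes). For 7 (63.6%) the 95% interval of the difference lay wholly within a fold of 1.5 in either direction, against 76.8% of all genes. Tgfbr1, the type I receptor of TGF-beta, had signals of 9.86 and 9.80 in visceral and 9.03 and 8.97 in parietal mesothelium. The pairs lay far apart, and Tgfbr1 was 1.77-fold higher in visceral mesothelium (0.83 on the log2 scale, SE 0.08, limma adjusted p = 0.00243). Its type II partner Tgfbr2 had signals of 11.19 and 11.23 against 11.72 and 11.64, higher in both parietal arrays. The adjusted p was 0.0183 but the fold was 1.38, so that Tgfbr2 was not called. The co-receptor gene Tgfbr3, which encodes betaglycan, differed by 0.03 (95% interval -0.19 to 0.26, adjusted p = 0.863), with overlapping arrays.

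Bmpr1a, a type I receptor of BMPs, had signals of 11.17 and 10.97 in visceral and 11.73 and 11.70 in parietal mesothelium, and was 1.56-fold higher in parietal mesothelium (-0.64 on the log2 scale, SE 0.10, limma adjusted p = 0.0106). Without visceral replicate 2 the difference was -0.55, under a fold of 1.5 (adjusted p = 0.0426), and the call was lost. Bmpr1b differed by 0.08 (95% interval -0.18 to 0.34), and Bmpr2, the type II receptor of BMPs, by 0.01 (-0.19 to 0.20), with all 4 arrays of Bmpr2 between 11.07 and 11.11. Acvr1, another type I receptor that BMPs use, had a difference of -0.32 and did not pass (adjusted p = 0.0738). The activin receptors had small differences of -0.14 for Acvr1b, -0.04 for Acvr2a and -0.11 for Acvr2b, none of which passed. Their 95% intervals all lay between -0.38 and 0.16. Acvr2b was dim, between 7.42 and 7.62 in every array, below the median signal of all genes, 7.71.

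Acvrl1, a type I receptor known from endothelium, had signals of 9.55 and 9.66 in visceral and 8.81 and 8.96 in parietal mesothelium. It was 1.65-fold higher in visceral mesothelium without overlap of the arrays (0.72 on the log2 scale, SE 0.10, limma adjusted p = 0.00685). Of 12 endothelial marker genes, 0 were called higher in visceral and 2, Cdh5 and Esam, higher in parietal mesothelium by limma. Of that list 6 genes leaned to each side, with a median of 0.01. The log2 of its summed signal was 11.90 and 11.99 in visceral against 12.27 and 12.34 in parietal mesothelium. In this sum the brightest genes, Esam and Kdr, weigh most, so that it does not stand for the list as a whole. The part of endothelial cells in the Acvrl1 signal was not tested. Bambi, a pseudoreceptor that lacks the kinase and damps signaling, had signals of 8.62 and 8.59 against 9.05 and 9.04. It was higher in both parietal arrays (difference -0.43, adjusted p = 0.0194), but at a fold of 1.35 it was not called.

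Of the 9 genes of secreted antagonists, 2 were called (22.2%, against 9.60% of all genes). For 6 (66.7%) the 95% interval lay within a fold of 1.5, against 76.8% of all genes. Chrdl1 encodes chordin-like 1, which binds BMPs. Its signals were 8.65 and 8.88 in visceral and 11.34 and 11.62 in parietal mesothelium. This was the largest difference of the 48 genes, 6.56-fold higher in parietal mesothelium (-2.71 on the log2 scale, SE 0.13, limma adjusted p = 0.000226), and it was -2.85 to -2.57 on leaving out each array in turn. Fst encodes follistatin, which binds activin and myostatin. It had signals of 9.15 and 9.52 against 10.14 and 10.21, and was 1.79-fold higher in parietal mesothelium (-0.84 on the log2 scale, SE 0.14, limma adjusted p = 0.0134).

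The other 7 antagonist genes did not pass. Chordin (Chrd) differed by 0.04, gremlin (Grem1) by 0.00, noggin (Nog) by -0.01, and Bmper, which can oppose or aid BMPs, by -0.04. The arrays of the tissues overlapped for each of these 4 genes, and the widest of their 95% intervals, that of Bmper, ran from -0.38 to 0.29. Grem1 and Nog were dim, between 6.72 and 6.98 in every array, below the median signal of all genes. Fstl1, a secreted relative of follistatin, differed by 0.03 (95% interval -0.33 to 0.39), and Fstl3, which binds activin, by 0.19 (-0.05 to 0.42). Nbl1, which encodes the antagonist DAN, leaned to the visceral side by 0.34 and did not pass (adjusted p = 0.150).

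None of the 8 Smad genes was called, whether for TGF-beta, for BMPs, shared or inhibitory, against 9.60% of all genes. A class of 8 genes is too small to set 0 calls apart from that share. At an unadjusted p under 0.05, 2 of the 8 passed in limma, Smad3 and Smad6, and 1 by the methods' t-test. Over all 19938 genes, 5408 passed so in limma and 3895 by the t-test. Smad3 had signals of 9.50 and 9.61 in visceral and 9.29 and 9.27 in parietal mesothelium, a difference of 0.27 (95% interval 0.05 to 0.48, adjusted p = 0.108). Smad6 had signals of 8.94 and 8.70 against 8.56 and 8.48, a difference of 0.30 (0.03 to 0.57, adjusted p = 0.148). Both leaned to the visceral side without overlap, and arrays did not overlap for 50% of the Smad genes, against 56.3% of all genes. The other 6 had differences of -0.14 (Smad9) to 0.15 (Smad5), with Smad4 at 0.03 (-0.17 to 0.22). For all 8 genes the 95% interval of the difference lay within a fold of 1.5 in either direction, as it did for 76.8% of all genes. Smad7 and Smad9 were dim, between 7.33 and 7.65 in every array, below the median signal of all genes, 7.71. For these dim genes a narrow interval does not show level expression. The arrays measure mRNA, and the phosphorylation by which Smads act was not measured.

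The Id genes encode inhibitors of helix-loop-helix transcription factors. Of the 3 in the set 2 were called (66.7%, against 9.60% of all genes), in opposite directions. Id1 had signals of 7.61 and 7.75 in visceral and 8.33 and 8.56 in parietal mesothelium, 1.69-fold higher in the latter (-0.76 on the log2 scale, SE 0.11, limma adjusted p = 0.00934). Id3 leaned the same way, at 7.92 and 7.90 against 8.21 and 8.78, but its difference of -0.59 did not pass (95% interval -1.05 to -0.12, adjusted p = 0.107). Without parietal replicate 1 it was -0.87 and was called (adjusted p = 0.00426). Id2 had signals of 10.36 and 10.34 in visceral and 9.06 and 9.70 in parietal mesothelium, where the arrays lay apart. It was 1.96-fold higher in visceral mesothelium (0.97 on the log2 scale, SE 0.20, limma adjusted p = 0.0318), and the call was lost without visceral replicate 1 (0.96, adjusted p = 0.117) and without visceral replicate 2 (0.98, adjusted p = 0.115), while the difference stayed about as large. The Id2 stretch printed here holds GGCGCC but not CAGAC, and the Id3 stretch CAGAC but not GGCGCC. With no window for Id1 and Id3 not called, these letters cannot be set against the directions of the Id genes.

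A further list of 86 symbols of the pathway was looked up, 2 of them older names of genes also listed, of which 78 were measured and 14 (17.9%, against 9.60% of all genes) were called, 4 on the visceral and 10 on the parietal side. Without parietal replicate 1, 8 were called on the visceral side. None of 16 other ligand genes was called by limma, against 9.60% of all genes. Of the 16, 0 had an unadjusted p under 0.05 in limma or in the methods' t-test. Only 3 of the 16 were brighter than the typical gene (median 7.71) in either tissue. The rest were dim, so that the lack of a call does not show these ligands to be level between the tissues. The largest difference of the list was that of Hjv, which encodes the BMP co-receptor hemojuvelin, known from skeletal muscle and liver. Its signals were 6.76 and 6.94 in visceral and 10.25 and 10.93 in parietal mesothelium (-3.74 on the log2 scale, SE 0.22, limma adjusted p = 0.000411). The muscle markers moved with Hjv as given above for Mstn, and their part was not tested.

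A list of genes that hold TGF-beta latent or release it, which also took in proteases of the Bmp1 kind and enhancers of the procollagen protease, had 4 called of 15 (26.7%), against 9.60% of all genes. Ltbp1, which anchors latent TGF-beta in the matrix, was higher in parietal mesothelium, with a difference of -1.06. Itgb6, a subunit of an integrin that releases TGF-beta, was higher there as well (-1.38). Pcolce, which enhances the procollagen protease, was the third of these (-0.67). Nrros, which tethers latent TGF-beta on myeloid cells, was higher in visceral mesothelium by 1.17 (SE 0.12, limma adjusted p = 0.00251). The macrophage markers given beside Inhba moved with Nrros as well, and their part was not tested.

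Among 14 intracellular regulators, 4 were called (28.6%, against 9.60% of all genes), and all 14 were brighter than the median gene in either tissue. Pmepa1 (-1.05) and Skil (-0.67), TGF-beta targets that feed back on the pathway, were higher in parietal mesothelium, and Smurf2, a ubiquitin ligase that marks receptors and Smads for decay, was higher in visceral mesothelium (0.72). Of 14 transcriptional targets, 4 were called, 2 in each direction (28.6%, against the same share of all genes). Ccn2, connective tissue growth factor, had a difference of -0.97 (SE 0.11, limma adjusted p = 0.00392), and Gata2 of 0.59. The remaining called genes, named after their values were seen, were Nedd4l (-0.87), Crim1 (-0.70), Tsc22d1 (-0.60) and Id4 (1.12). Id4 shared its direction with Id2.

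**Figure D3:**
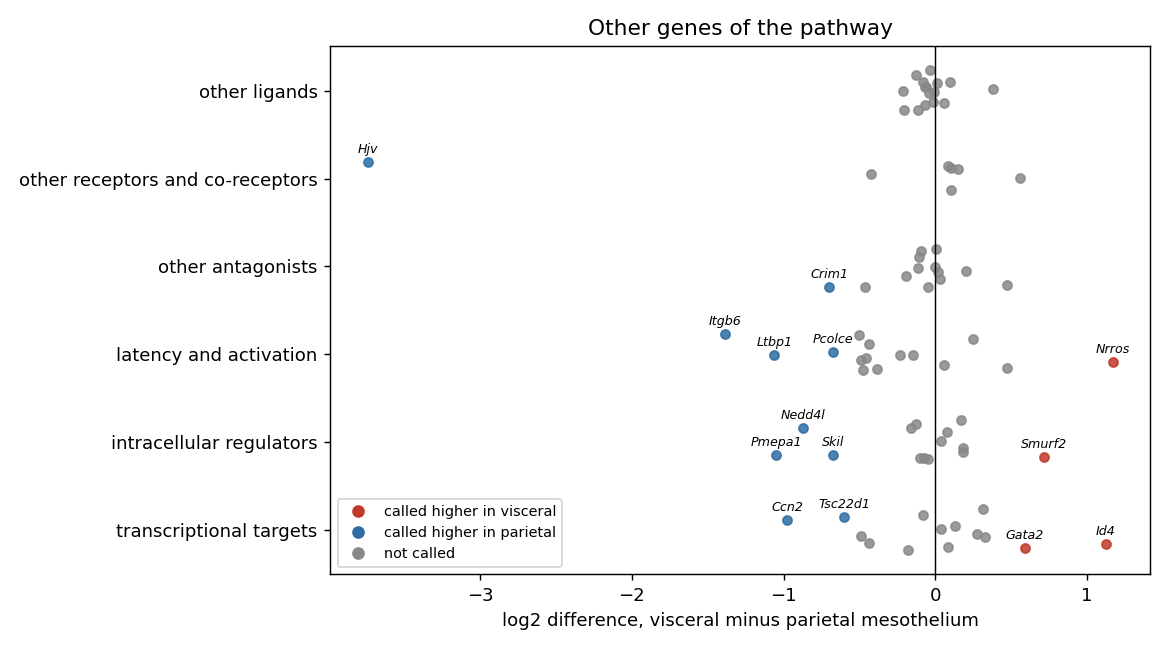
Visceral signal minus parietal signal on the log2 scale (x axis) for the further genes of the pathway by function (y axis, points spread vertically for visibility). Called genes are coloured and named, red higher in visceral and blue in parietal mesothelium; Hjv lies at -3.74 and no other ligand gene is coloured.

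The labelled tissues were checked against marker lists. Mesothelial markers were bright in all arrays, with a mean log2 signal of the 14 genes of 11.40 and 11.28 in visceral and 12.35 and 12.26 in parietal mesothelium. Of these, 9 were higher in parietal and 1, Wt1, in visceral mesothelium. Genes of other cell types were also present, with 17 muscle markers all higher in parietal and 13 macrophage, 7 of 8 mast cell and 4 of 8 B cell markers higher in visceral mesothelium. Fibroblast markers split, 3 of 12 being higher in visceral and 5 in parietal mesothelium. Smooth muscle markers did too, with 5 of 9 on the visceral and 2 on the parietal side, and of 9 adipocyte markers 1 was higher in parietal mesothelium. Their part in the differences of the signaling genes was not tested.

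**Figure D4:**
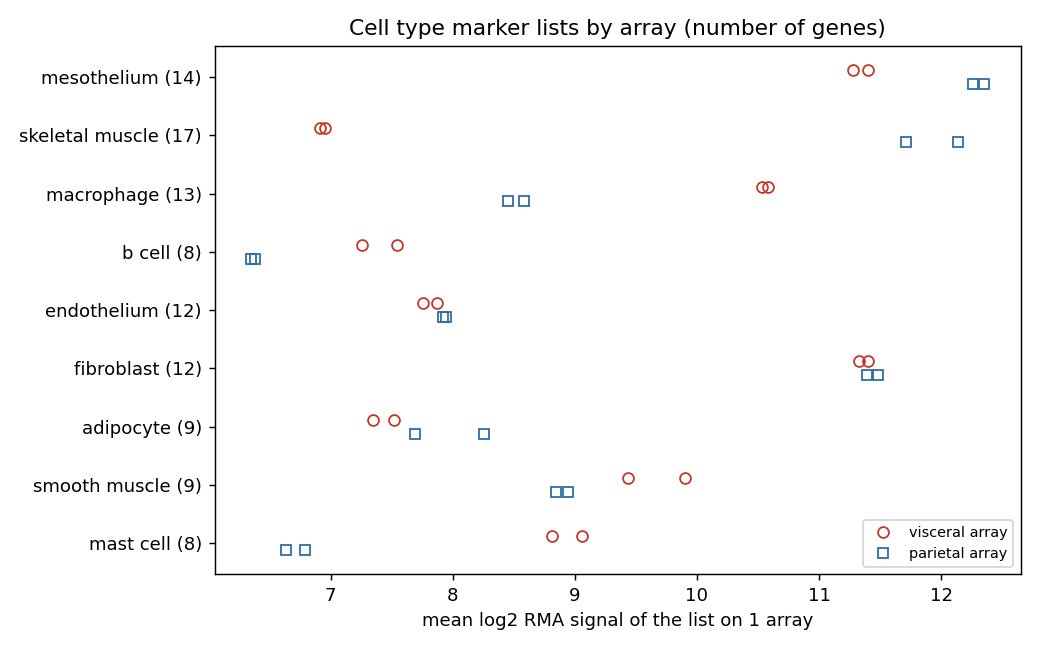
Mean log2 RMA signal on each array (x axis) of 9 cell type marker lists (y axis, number of genes in brackets). Circles are visceral and squares parietal arrays; the muscle list lies near 6.91 and 6.95 in visceral and at 11.71 and 12.14 in parietal mesothelium, and the macrophage list is higher in visceral mesothelium.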

How the data were processed

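The authors normalized 4 Affymetrix Mouse Gene 1.0 ST arrays by RMA in Partek 6.6, as the methods and the submitters' processing notes state, and the deposited values are on the log2 scale. The library version is not given in the sources used here. RMA brings the array distributions close together, here with array medians of 7.383 to 7.412, so that differences are relative to the other genes. The 48 genes and the further lists were chosen with earlier results of these data known. Of 35556 rows, 21789 had 1 gene symbol, and for each of 19938 genes the row with the highest mean was taken. A linear model with moderated variances (limma 3.58.1, R 4.3.3) compared visceral with parietal arrays without a block, adjusting over all genes, at the methods' threshold. The code was tested on simulated data. The alternatives were the methods' t-test (one-way ANOVA), other thresholds and variance priors, further normalizations, a filter on dim genes, other rows, the replicate number as a block, and fits without 1 array. Genes were named where called, by the largest difference of a class, or as isoforms, receptors and Smads. No scan date was used. Promoter letters were searched in RefSeq windows.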

Additional observations from a re-analysis of the deposited data

How the results depend on the processing

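All 13 calls among the 48 genes kept their direction under every alternative. The methods' t-test after adjustment called 0 genes of the set, of the further pathway list and of all genes, and the lowest adjusted p in the set was 0.120; without adjustment it called 11 of the 13, losing the calls of Tgfb3 and Id2, so that 0 Id genes were called in visceral mesothelium, although the difference of Id2 was unchanged at 0.97. Tests over all rows lost the same calls, again leaving 0 such Id genes. At a fold of at least 2 the set had 2 called genes in each direction, with 1 ligand and 1 antagonist higher in parietal mesothelium and 0 receptor and 0 Id genes in either direction; the further list had 2 and 4, and all genes 521 and 457, for visceral and parietal. A test against a fold of 1.5 called 0 of the set higher in visceral and 2 in parietal mesothelium, Bmp6 as 1 ligand and Chrdl1 as 1 antagonist, 0 receptor and 0 Id genes, 1 and 2 of the further list, and 393 and 331 of all genes. With no minimum fold, 17 genes of the set passed, Tgfb1, Gdf6, Tgfbr2 and Bambi in addition, with 2 receptor genes and 1 pseudoreceptor gene higher in parietal mesothelium, and 1574 of all genes were higher in visceral mesothelium.

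Quantile normalization, median centring and the mean of a gene's rows each called all 13, a filter on dim genes lost Bmp3, and a prior with trend called Bmp2 in addition. The labels give the same replicate numbers in both tissues without stating a shared animal. Deviations of same-numbered arrays correlated over genes at 0.356, which 2 pairs do not settle. With the replicate block 15 genes of the set were called, Bmp2 (adjusted p = 0.0167) and Mstn (adjusted p = 0.0488) in addition.

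On leaving out each array in turn, the set had 5 to 7 called genes higher in visceral and 6 to 9 in parietal mesothelium. Ligand genes had 3 to 4 in each direction, receptor genes 2 in visceral and 0 to 1 in parietal mesothelium, and Id genes 0 to 1 and 1 to 2. The further list had 3 to 8 and 9 to 10, the 8 without parietal replicate 1, and all genes 955 to 1141 and 741 to 954. With 1 array of a tissue left, the spread came from the other tissue alone.

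Signs turned only for genes near 0 that were not called in any of these fits. Median centring gave -0.010 for Bmpr2, -0.012 for Grem1 and -0.0032 for Smad7. On leaving out each array in turn, the difference ran from -0.16 to 0.10 for Gdf5, -0.036 to 0.10 for Tgfbr3, -0.027 to 0.19 for Bmpr1b, -0.018 to 0.029 for Bmpr2, -0.035 to 0.12 for Chrd, -0.018 to 0.026 for Grem1, -0.068 to 0.041 for Nog, -0.15 to 0.22 for Fstl1, -0.18 to 0.094 for Bmper, -0.10 to 0.036 for Smad1, -0.20 to 0.19 for Smad2 and -0.071 to 0.095 for Smad7.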
